A study of Mus musculus with 6 samples.

Results

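Bone morphogenetic proteins (BMPs) are secreted ligands of the TGF-beta superfamily. A ligand dimer brings together type I and type II serine/threonine kinase receptors, and the activated type I receptor phosphorylates the SMAD proteins that carry the signal to the nucleus. Secreted antagonists such as noggin bind the ligands outside the cell and keep them from the receptors. In the pigment lineage the pathway is known from the neural crest, where BMP signals help to set the fate of the cells that become melanocytes. The 10 genes described here are Nog and Bambi (antagonists), Bmp2 and Bmp4 (ligands), Bmp1 (a protease), Bmpr1a and Acvr1 (type I receptors), and Bmpr2, Acvr2a and Acvr2b (type II receptors). They were taken by gene symbol from the 54838 genes of the deposited table, and all 10 were found. The set was chosen by the counts of Nog, which were above 0 in fenofibrate libraries only, so the difference between the groups in Nog is given as a description, with no test.

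RNA was sequenced from cultured mouse B16F10 melanoma cells treated with fenofibrate at 50 µM (n = 3 libraries) and from control cells (n = 3 libraries), which the study calls biological triplicates. Fenofibrate is a lipid-lowering drug whose acid form activates the nuclear receptor PPARα. Exposure time and vehicle are not given in the sources used here, and the cell line field names a different line for each library, from B16F10 to B16F15. If that field is meant as written, line and treatment cannot be told apart.

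The libraries held 13540038 to 14710856 counts with fenofibrate and 13594939 to 14072673 counts in control. In one library, 0 counts are compatible with 0.204 to 0.222 CPM (counts scaled to the library total), which is the level of 3 counts. This limit covers counting error only. Of 15 melanocyte markers, 14 were counted and Ednrb was at 0 in all 6 libraries. The summed level of the list was 28862 to 30657 CPM with fenofibrate and 23622 to 25092 CPM in control.

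Nog encodes noggin, which binds BMPs with high affinity. The gene (ENSMUSG00000048616, GRCm38 chromosome 11, 89300638 to 89302332, minus strand) is a single exon. The deposited counts are per gene and do not show which transcript the reads came from. The first 300 bases of its coding sequence, at chr11:89301721-89302020, are shown because Nog was counted in the fenofibrate libraries and not in the control libraries. They come from the GENCODE M21 transcript, 5′ to 3′ on the minus strand, with the start codon in capitals.
Nog: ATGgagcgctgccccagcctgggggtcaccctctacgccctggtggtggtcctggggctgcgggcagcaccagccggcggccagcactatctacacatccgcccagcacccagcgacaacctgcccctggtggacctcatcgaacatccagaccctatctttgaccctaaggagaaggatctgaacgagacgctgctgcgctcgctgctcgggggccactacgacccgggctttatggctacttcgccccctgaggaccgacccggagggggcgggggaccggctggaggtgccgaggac

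Nog was counted 106, 122 and 133 times in the fenofibrate libraries, against 0, 0 and 0 times in the control libraries. The groups were fully apart, and the 3 fenofibrate libraries lay close together at 4.62, 5.01 and 5.33 FPKM (the deposited level, scaled to gene length and library total). Set against a limit of 3 counts over the whole control group, the 361 fenofibrate counts stood 116.5-fold higher, each per summed library total. This ratio is a description from the counts that chose the set. It takes the 361 counts as exact and leaves out variation between libraries. In bulk RNA, more cells that make a transcript and more transcript per cell cannot be told apart. Nog passed the filter on low counts only through the fenofibrate group.

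Of 23561 genes with a count in any library, 118 (0.501%) were counted in every fenofibrate library and in no control library, and 94 (0.399%) showed the mirror pattern. Nog was chosen for this pattern, so its place among the 118 genes is a description. The other genes of the pattern with most counts, picked for these values, were Igkc with 83, Ighm with 64, Adgra1 with 52, Igha with 49, Jchain with 40 and S100a9 with 33 summed counts. In the mirror group the imprinted RNA H19 led with 152 summed control counts, 104 of them in control replicate 3.

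**Figure D1:**
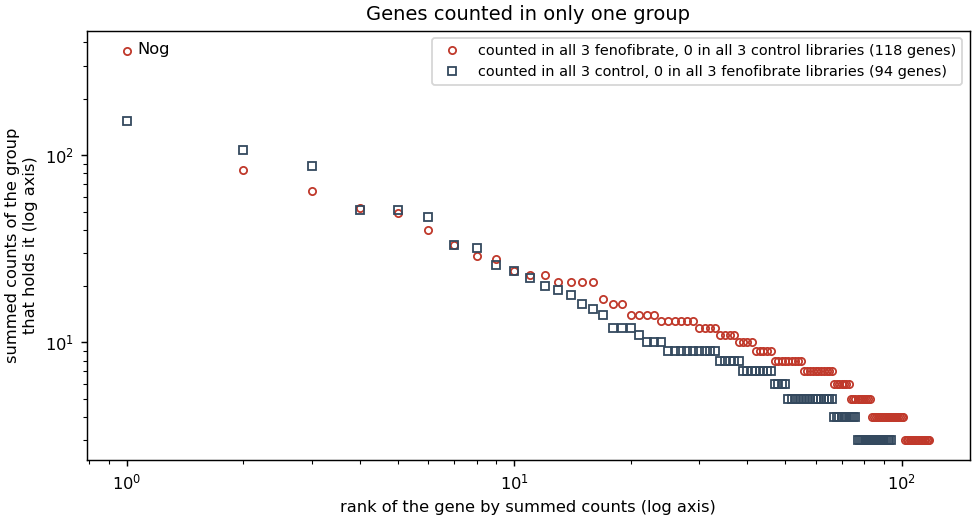
Summed counts of each gene counted in all libraries of one group and in none of the other, ranked from high to low on log axes. Circles are the 118 genes found with fenofibrate only and squares the 94 genes found in control only. Nog, chosen for this pattern, has 361 counts, the next fenofibrate-only gene has 83 and the highest control-only gene has 152.

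Markers of other cell types were read beside Nog. Of 8 blood cell markers, Cd3e, Itgam and Adgre1 were at 0 throughout, and the summed list was 1.11 to 1.39 CPM with fenofibrate and 0.221 to 0.662 CPM in control. Ptprc, the pan-leukocyte phosphatase CD45, had 6, 10 and 8 counts with fenofibrate and 0, 0 and 0 in control. Outside that list, the immunoglobulin gene Igkc of B and plasma cells had 25, 38 and 20 counts with fenofibrate and 0 in every control library. Ighm had 28, 18 and 18 counts and Igha 17, 20 and 12 counts with fenofibrate, again with 0 in every control library. Jchain, which joins immunoglobulin units, had 11, 13 and 16 counts with fenofibrate, and S100a9, a gene of myeloid cells, had 9, 13 and 11, both with 0 in every control library. Of 6 endothelial markers, Cdh5, Kdr, Tek and Emcn were at 0 in all 6 libraries, and the summed list was 8.49 to 11.1 CPM with fenofibrate and 3.24 to 3.46 CPM in control. Vwf, the von Willebrand factor gene, held most of that sum, with 146, 118 and 131 counts with fenofibrate and 40, 41 and 38 in control, a rise of 3.34-fold (edgeR, adjusted p = 0.000177). Pecam1, the other endothelial marker with counts, did not rise, with 4, 4 and 8 counts with fenofibrate and 4, 7 and 9 in control. The sum of 7 cartilage and bone markers was 1.11 to 1.90 CPM with fenofibrate and 13.9 to 61.5 CPM in control, with Ibsp at 0 throughout. Of these 7, Col2a1 and Acan were tested and both were lower with fenofibrate, where 19.5% of all genes tested were lower. Of those not tested, Matn1 had 0 summed counts with fenofibrate and 51 in control, and Comp 7 and 20. Sp7 had 1 and 2 and Bglap 5 and 3. Acan passed the filter on low counts only through the control group. The part of any of these cell types in the Nog counts was not tested.

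No annotated gene overlaps Nog on either strand. Transcripts that are not annotated were not looked at, and how reads were assigned to genes is not given. Gm2018 begins 390 bases away on the other strand and had 0, 0 and 2 counts with fenofibrate and 0, 0 and 0 in control. Ankfn1, the other gene within 100 kb, was counted 1580, 1459 and 1766 times with fenofibrate and 1534, 1561 and 1291 times in control. Neither neighbour showed the pattern of Nog.

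The 5 genes whose profile lay nearest to Nog were Lef1, Cdh6, Dusp5, Itgb8 and Lfng. Nearness was the Euclidean distance of log2(CPM + 0.5) over the 6 libraries, taken over 23560 other genes, and ran from 1.99 for Lef1 to 2.72 for Lfng. Lef1, a transcription factor of the Wnt pathway, had 68, 73 and 72 counts with fenofibrate and 9, 2 and 6 in control. Cdh6, a cadherin gene, had 40, 40 and 60 counts with fenofibrate and 2, 6 and 6 in control. Each of the 5 was counted in at least 2 control libraries, so none was at 0 in control as Nog was.

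The second antagonist, Bambi (ENSMUSG00000024232, chromosome 18, 3507923 to 3516404), encodes a membrane protein that resembles a type I receptor but lacks the kinase. It had 180, 190 and 211 counts with fenofibrate, against 105, 201 and 164 counts in control. The groups overlapped, and control replicate 1 was the low library. Bambi was not called, at a log2 fold change of 0.32 ± 0.20 SE (95% interval -0.16 to 0.79, edgeR quasi-likelihood test, adjusted p = 0.254). A rise of up to 1.73-fold and a fall to 0.897 of control both lie inside that interval.

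**Figure D2:**
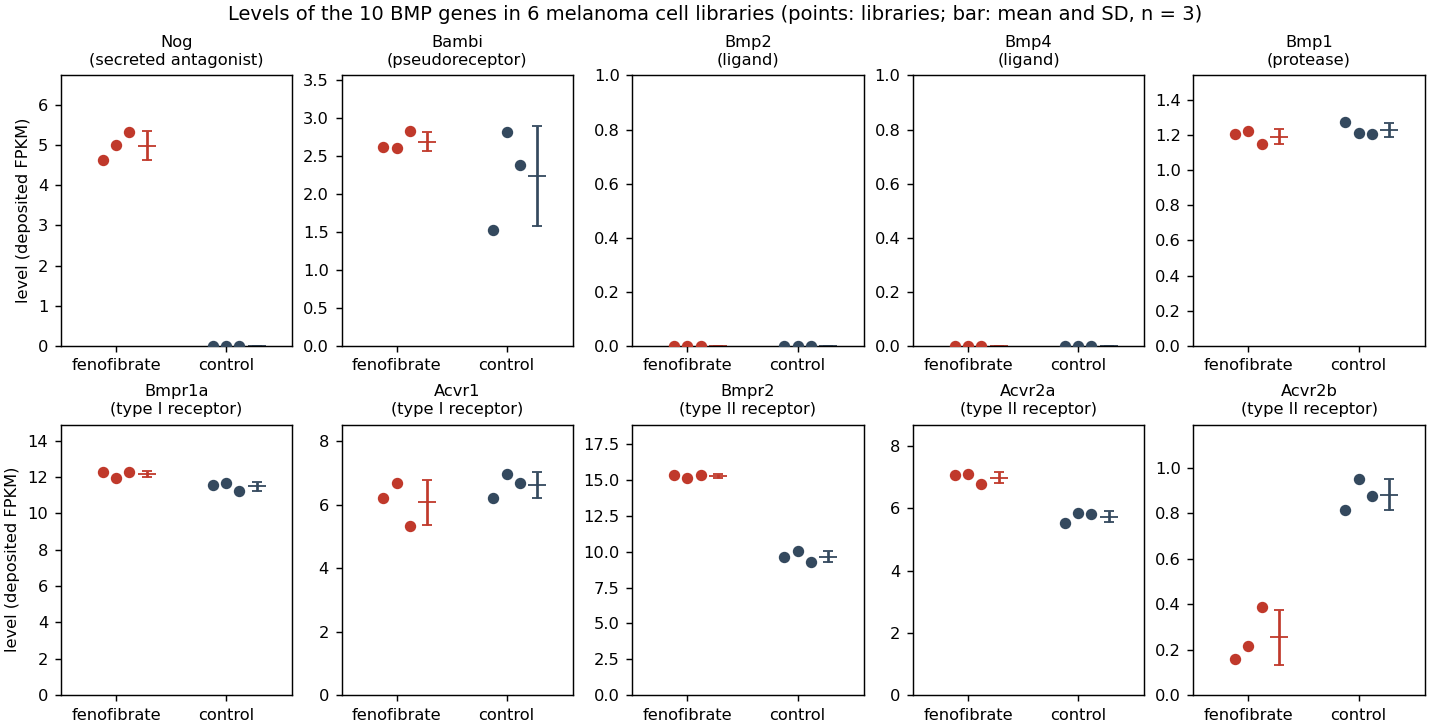
Deposited FPKM of the 10 genes in each library, fenofibrate at left and control at right, with the mean and SD of 3 libraries beside the points. Nog stands at 4.62 to 5.33 FPKM with fenofibrate and at 0 in control, Bmp2 and Bmp4 are at 0 in all 6 libraries, Bmpr2 and Acvr2a are higher and Acvr2b is lower with fenofibrate.

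Both ligand members were absent from the counts. Bmp2 (chromosome 2, 133552159 to 133562885) and Bmp4 (chromosome 14, 46383520 to 46390669), whose products are the ligands of BMPR1A best known from bone and early development, each had 0 counts in all 6 libraries. Neither could be tested. The other ligands of the family were nearly as silent. Of 28 ligand genes of the BMP, GDF and activin families, Bmp2 and Bmp4 included, 18 had 0 counts in every library and 20 had at most 1 count in all. Of the 10 genes named Bmp2 to Bmp15, 9 had no count and Bmp3 had 1, in a control library.

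Most of the ligand RNA that was counted came from Gdf11, which encodes a ligand that signals through activin receptors. Gdf11 had 333, 375 and 323 counts with fenofibrate, against 380, 465 and 422 in control. It fell by 0.29 ± 0.10 SE on the log2 scale (edgeR, adjusted p = 0.0488), and it was called in 6 of 14 alternative analyses, with adjusted p from 0.0344 to 0.141. Inhba, which encodes the activin A subunit, was scarce: it had 15, 15 and 11 counts with fenofibrate and 1, 0 and 1 in control. Its log2 fold change was 4.13 ± 0.58 SE (edgeR, adjusted p = 0.00136), a value that rests on 2 control counts and was 0.31 on the log2(FPKM + 0.5) scale. Inhba, like Nog, passed the filter on low counts only through the fenofibrate group. Inha, the alpha subunit of inhibin, had 8, 6 and 10 counts with fenofibrate, against 17, 20 and 18 in control, and was 2.26-fold lower (edgeR, adjusted p = 0.0135). The call of Inha was lost with DESeq2 (adjusted p = 0.12) and without fenofibrate replicate 2 (0.0515), and held in 12 of 14 alternatives, with adjusted p from 0.00326 to 0.12.

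Gdf15, a stress-induced member, had 3, 4 and 8 counts with fenofibrate and 17, 18 and 12 in control, and was 3.07-fold lower (edgeR, adjusted p = 0.0141). The call of Gdf15 was lost with DESeq2 (adjusted p = 0.0654) and without fenofibrate replicate 2 (0.0517), and held in 9 of 11 alternatives, with adjusted p from 0.0109 to 0.0654. Gdf7 had 3, 7 and 15 counts with fenofibrate and 25, 28 and 17 in control, and was 2.77-fold lower (log2 fold change -1.47). Without fenofibrate replicate 3 the log2 fold change of Gdf7 was -2.16, and it was called in 6 of 14 alternatives, with adjusted p from 0.0116 to 0.104. Of the 26 ligand genes other than Bmp2 and Bmp4, 6 were tested, of which 1 was higher, 4 were lower and Amh was not called. Their median log2 fold change was -0.73, against -0.0021 over all 13629 genes tested. Of all genes tested, 19.5% were higher and 19.5% lower. Inha, Gdf15 and Gdf7 passed the filter on low counts only through the control group. The calls and the median of the tested ligands thus hold genes that entered through the group where they are high. They are a description and carry no result about ligands as a set.

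**Figure D3:**
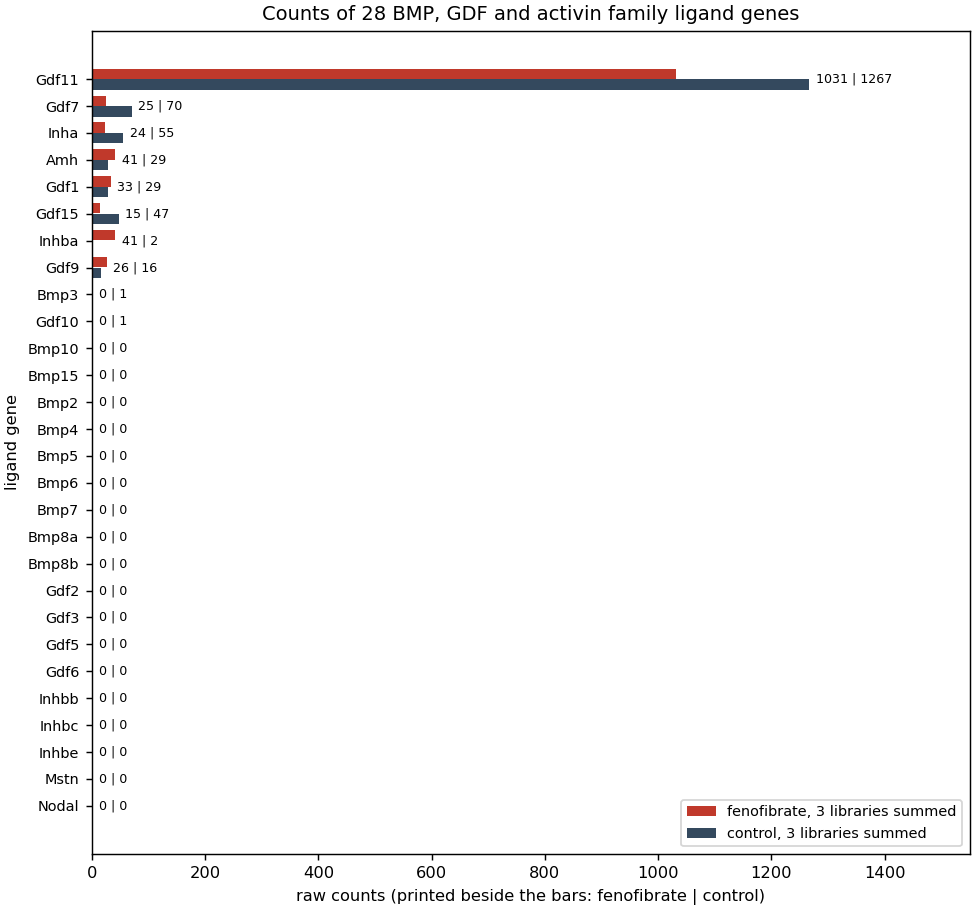
Raw counts of 28 ligand genes of the BMP, GDF and activin families, summed over 3 fenofibrate libraries (upper bar) and 3 control libraries (lower bar). Gdf11 holds most of the counts, with 1031 and 1267, while 20 genes, Bmp2 and Bmp4 among them, have at most 1 count in all.

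Bmp1 (ENSMUSG00000022098, chromosome 14, 70474558 to 70520234) carries the family name but encodes a metalloprotease that trims procollagens and cleaves chordin, an antagonist of BMPs. It had 202, 218 and 209 counts with fenofibrate, against 215, 211 and 203 in control, 629 in each group. It was not called, at a log2 fold change of 0.01 ± 0.08 SE (95% interval -0.18 to 0.20, edgeR adjusted p = 0.946), and the interval as a fold ran from 0.883 to 1.15. The sign of this value changed in 8 of 14 alternatives. Among its relatives Tll1 had 4, 2 and 0 counts with fenofibrate and 2, 4 and 5 in control, and Tll2 had none. Pcolce, which enhances the cleavage of procollagen by BMP1, had 1224, 1360 and 1170 counts with fenofibrate, against 1211, 1264 and 1381 in control. Its paralog Pcolce2 was 1.98-fold lower at 15, 13 and 9 counts with fenofibrate, against 30, 21 and 23 in control (edgeR, adjusted p = 0.0338), and was called in 5 of 11 alternatives, with adjusted p from 0.0306 to 0.140. Pcolce2 passed the filter on low counts only through the control group. Of 8 proteases and enhancers 4 were tested, with 0 higher and 1 lower, and their median log2 fold change was 0.08. Over all genes tested, 19.5% were higher and 19.5% lower.

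In both groups the highest FPKM of the 10 genes were those of Bmpr2 and Bmpr1a. Bmpr2 (ENSMUSG00000067336, chromosome 1, 59763400 to 59879014), the BMP type II receptor, had 3819, 3994 and 4150 counts with fenofibrate, against 2398, 2591 and 2319 in control. The groups did not overlap, and the spread within each was small, at 15.3 ± 0.129 FPKM with fenofibrate and 9.65 ± 0.371 FPKM in control (SD, n = 3 each). Bmpr2 rose 1.65-fold (log2 fold change 0.72 ± 0.04 SE, 95% interval 0.63 to 0.81, edgeR adjusted p = 2.5e-05). It was higher in 3 of 3 fenofibrate libraries than in any control, and it passed the threshold in 14 of 14 alternatives, with adjusted p up to 0.00119.

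Acvr2a (ENSMUSG00000052155, chromosome 2, 48814109 to 48903269) encodes a type II receptor shared by activins and BMPs. It had 612, 653 and 639 counts with fenofibrate and 480, 526 and 506 in control, again with no overlap. Its rise was 1.27-fold (log2 fold change 0.34 ± 0.06 SE, 95% interval 0.20 to 0.48, edgeR adjusted p = 0.00329). The end of Acvr2a shares 446 bases with Orc4, a replication gene on the other strand, and the strand setting of the counting is not given. Orc4 itself had 774, 837 and 877 counts with fenofibrate and 832, 860 and 752 in control, with a log2 fold change of 0.03 ± 0.06 SE.

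Acvr2b (ENSMUSG00000061393, chromosome 9, 119402118 to 119434995), the paralog of Acvr2a, moved in the opposite direction. It had 13, 19 and 35 counts with fenofibrate, against 68, 82 and 73 in control. All fenofibrate libraries were below all controls, and fenofibrate replicate 3 was the highest of its group. Acvr2b was 3.31-fold lower (log2 fold change -1.73 ± 0.29 SE, 95% interval -2.41 to -1.04, edgeR adjusted p = 0.00306). It was called in 14 of 14 alternatives, with a smaller change of -0.59 on the log2(FPKM + 1) scale, where low genes are compressed. Cartilage and bone markers were also lower with fenofibrate, with 14, 14 and 23 counts of Col2a1 against 171, 171 and 720 in control, and their part in the value of Acvr2b was not tested. The sum of 8 fibroblast markers was 14.8 to 15.4 CPM with fenofibrate and 27.9 to 32.2 CPM in control. Of the 8, 3 were tested: Col1a2 was lower (287 summed counts with fenofibrate, 902 in control), Postn was higher (308 and 210) and Col1a1 was not called. The part of this list in the value of Acvr2b was not tested either. Without control replicate 3, which held most Col2a1, the log2 fold change of Acvr2b was -1.73. Control replicates 1 and 2 still held 171 Col2a1 counts each, above every fenofibrate library. That fit therefore cannot decide the part of the cartilage and bone markers.

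The make-up of the type II receptor transcripts differed between the groups. Bmpr2 made up 67.9% ± 0.399 of their summed FPKM with fenofibrate and 59.3% ± 1.10 in control, and Acvr2b 1.13% ± 0.534 with fenofibrate and 5.42% ± 0.272 in control (SD, n = 3 each). The ratio of Acvr2a to Acvr2b was 17.5 to 45.1 with fenofibrate and 6.14 to 6.76 in control. These values depend on the gene lengths behind the deposited FPKM. With the merged exon length of each gene instead, the ratio was 12.6 to 32.5 with fenofibrate and 4.43 to 4.88 in control. The mean share of Acvr2b was then 1.66% with fenofibrate and 7.78% in control. The summed level of the 3 genes was 22.5 ± 0.0637 FPKM with fenofibrate and 16.3 ± 0.497 FPKM in control. The sum of both type I receptor genes was 18.3 ± 0.592 FPKM with fenofibrate and 18.1 ± 0.483 FPKM in control, ranges that overlapped. Since the genes were gathered with these values known, the sums and shares carry no test.

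**Figure D4:**
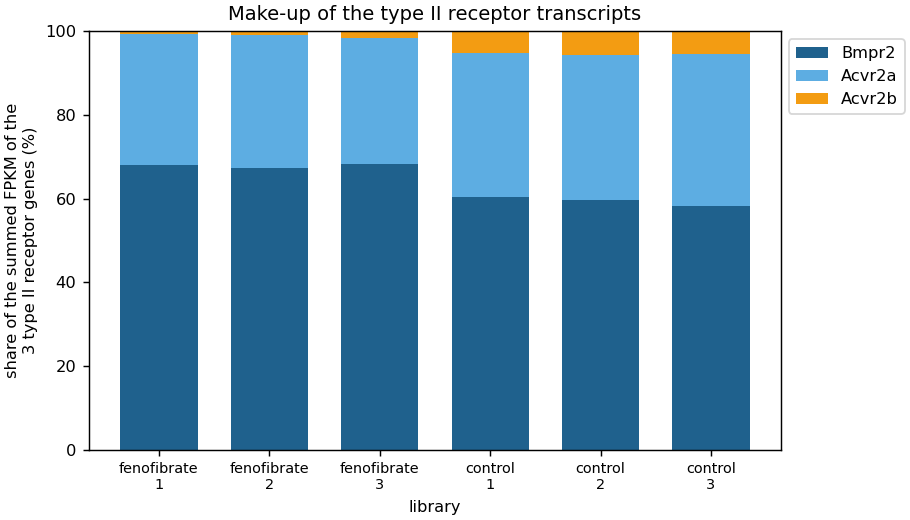
Share of Bmpr2, Acvr2a and Acvr2b in the summed deposited FPKM of the 3 type II receptor genes, one stacked bar per library, fenofibrate libraries left of control libraries. Bmpr2 takes 67.4% to 68.2% with fenofibrate and 58.1% to 60.3% in control, and Acvr2b takes 0.694% to 1.72% with fenofibrate and 5.12% to 5.65% in control.

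Acvr2a and Acvr2b are paralogs that moved in opposite directions, and the sequences before their starts are shown for that reason. They are RefSeq promoter sequences (GRCm38.p6), plus strand, 5′ to 3′, limited to the bases before the gene as the deposited table gives it. Capitals mark GGGCGG on either strand (printed CCGCCC where it lies on the minus strand), the GC box bound by SP1-type factors. The stretches are chr2:48813859-48814108 for Acvr2a and chr9:119401928-119402117 for Acvr2b.
Acvr2a: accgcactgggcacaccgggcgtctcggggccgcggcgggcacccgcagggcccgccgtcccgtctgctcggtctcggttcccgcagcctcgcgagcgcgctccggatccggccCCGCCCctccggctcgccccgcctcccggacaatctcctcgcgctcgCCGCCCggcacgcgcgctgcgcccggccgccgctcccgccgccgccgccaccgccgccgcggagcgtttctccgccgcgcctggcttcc
Acvr2b: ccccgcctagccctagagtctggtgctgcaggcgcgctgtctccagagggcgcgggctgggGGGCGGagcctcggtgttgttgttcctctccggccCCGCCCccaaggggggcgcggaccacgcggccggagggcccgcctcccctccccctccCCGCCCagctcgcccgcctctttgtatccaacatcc

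The Acvr2a stretch holds 2 GC boxes and the Acvr2b stretch 3. Of 32851 RefSeq promoters, 32.7% hold at least 1 in the 250 bases before the start, and 16.7% hold 2 or more. GC boxes were not particular to this pair: Acvr1, which was not called, holds 6, Bmpr1a 4, and Bmp4 and Bmpr2 1 each. The 250 bases are 82.0% G or C for Acvr2a and 72.8% for Acvr2b, against a median of 52.4% over all promoters. GGCGCC, a palindromic motif bound by BMP-activated SMADs, was found in neither the Acvr2a nor the Acvr2b stretch. RefSeq promoters were matched for 6 of the 10 genes: Acvr1, Acvr2a, Acvr2b, Bmp4, Bmpr1a and Bmpr2. Among these, Bmpr1a and Bmpr2 hold 1 GGCGCC each in the 250 bases, a motif found in 9.59% of all promoters. For both, the 250 bases lie wholly inside the gene as the deposited table gives it. The palindrome GTCTAGAC was in none of the 6 and in 0.167% of all promoters.

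Bmpr1a (ENSMUSG00000021796, chromosome 14, 34410734 to 34503341), the type I receptor best known for BMP2 and BMP4, had 1167, 1205 and 1263 counts with fenofibrate, against 1104, 1153 and 1069 in control. In CPM the groups did not overlap, but they lay close together, at 85.3 ± 1.26 CPM with fenofibrate and 80.6 ± 1.74 CPM in control (SD, n = 3 each). The log2 fold change of 0.14 ± 0.05 SE just passed the threshold (edgeR, adjusted p = 0.0492). The call was lost in 14 of 14 alternatives, with adjusted p from 0.0757 to 0.239. Its 5′ end shares 290 exonic bases with Gm17110, a gene of the other strand with 1 count with fenofibrate and 4 in control. Acvr1 (ENSMUSG00000026836, chromosome 2, 58388644 to 58567157), a type I receptor for several BMPs, had 586, 672 and 546 counts with fenofibrate and 588, 686 and 635 in control. Acvr1 was not called, at a log2 fold change of -0.07 ± 0.09 SE (95% interval -0.29 to 0.15, edgeR adjusted p = 0.586), and without fenofibrate replicate 3 it was 0.02.

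Of the 9 genes other than Nog, 7 were tested. The calls were 3 higher, Bmpr2, Acvr2a and Bmpr1a, and 1 lower, Acvr2b, while Bambi, Bmp1 and Acvr1 were not called. In the same fit 39.1% of 13629 genes passed, 19.5% upward and 19.5% downward. In CPM the groups did not overlap for the same 4 genes, where 53.3% of all genes tested did not. The genes were gathered for a value in this very contrast, so nothing is read from these shares.

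Levels can be set beside each other per length only. In the fenofibrate libraries the order by mean FPKM was Bmpr2 (15.3), Bmpr1a (12.2), Acvr2a (6.99), Acvr1 (6.08), Nog (4.99), Bambi (2.68), Bmp1 (1.19) and Acvr2b (0.254), with Bmp2 and Bmp4 at 0. Acvr1 and Nog overlapped in range, and every other pair of neighbours with counts was apart. In control Bmpr1a (11.5 FPKM) stood above Bmpr2 (9.65 FPKM), and was followed by Acvr1 (6.63), Acvr2a (5.73), Bambi (2.24), Bmp1 (1.23) and Acvr2b (0.882), with no overlap between neighbours. The ratio of Bmpr2 to Bmpr1a was 1.25 to 1.26 with fenofibrate and 0.828 to 0.858 in control. Nog, at 0 in control, thus lay above Bambi, Bmp1 and Acvr2b with fenofibrate. The deposited FPKM divides by a length that exceeds the merged exon length 1.44-fold for Acvr1 and 1.56-fold for Acvr2b. Per merged exon length Acvr1 and Bmpr2 overlapped in control, as did Bambi and Bmp1, and Acvr1 and Acvr2a overlapped with fenofibrate.

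Among the other receptors and coreceptors, 7 of 10 were tested, with 0 higher, 2 lower and 5 not called (median log2 fold change -0.20). Over all genes tested, 19.5% were higher and 19.5% lower. Rgma, a membrane-anchored coreceptor of BMPs, had 61, 72 and 85 counts with fenofibrate and 184, 169 and 181 in control, and was 2.44-fold lower (edgeR, adjusted p = 0.000294). Acvr1b, the type I receptor of activins, had 218, 267 and 243 counts with fenofibrate and 313, 297 and 403 in control, and was 1.39-fold lower (edgeR, adjusted p = 0.03). It was called in 8 of 14 alternatives, with adjusted p from 0.0177 to 0.0900. Bmpr1b, the relative of Bmpr1a, had 8, 13 and 13 counts with fenofibrate and 37, 31 and 12 in control, with overlapping groups (edgeR, adjusted p = 0.06).

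Of 21 other antagonists and modulators, 5 were tested, with 3 higher, 0 lower and 2 not called (median log2 fold change 0.17). Over all genes tested, 19.5% were higher and 19.5% lower. Fstl3, a follistatin relative that binds activins and some BMPs, had 101, 128 and 122 counts with fenofibrate, against 46, 37 and 47 in control. It rose 2.70-fold (edgeR, adjusted p = 0.000438). Crim1, a transmembrane BMP binder, rose 1.29-fold (edgeR, adjusted p = 0.0067). Twsg1, a BMP-binding partner of chordin, rose 1.13-fold (edgeR, adjusted p = 0.0359), and was called in 1 of 14 alternatives, with adjusted p from 0.0403 to 0.189. Chrd, Grem1, Fst and Dand5 lie outside the naming rule and were picked with their values known. Chrd had 5, 6 and 0 counts with fenofibrate and 0, 0 and 0 in control, Grem1 had 1 count in all, in control, and Fst had 2, 0 and 1 counts with fenofibrate and 0, 0 and 0 in control. Dand5, a secreted antagonist of the DAN family, had 47, 42 and 78 counts with fenofibrate and 74, 79 and 71 in control (edgeR, adjusted p = 0.182).

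The SMADs carry the signal inside the cell. Of 12 SMADs and regulators tested, 4 were higher and 8 were not called (median log2 fold change 0.09), where 19.5% of all genes tested were higher. The inhibitory Smad6 and Smad7 rose 37.5-fold and 7.95-fold, Smad9 12.3-fold, and the ubiquitin ligase gene Smurf1 rose by 0.38 on the log2 scale, with edgeR adjusted p from 3.49e-07 to 0.00317. Smad9 is also one of the SMADs that BMP receptors activate, and its relatives Smad1 and Smad5 were not called. Smad5 had 1537, 3802 and 2811 counts with fenofibrate, against 4001, 4024 and 3789 in control. In CPM the fenofibrate libraries were spread widely, at 113.5, 264.6 and 191.1. All of them were below the controls, at 294.3, 285.9 and 278.6 CPM (edgeR, adjusted p = 0.13).

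Of 21 textbook BMP target genes outside the 10 genes, 11 were tested, of which 10 were higher, 0 lower and Runx2 was not called. Their median log2 fold change was 2.99, against -0.0021 over all genes tested, and the list shares Smad6, Smad7 and Smad9 with the SMADs. Of all genes tested, 19.5% were higher and 19.5% lower. Id3 had 2705, 3104 and 2901 counts with fenofibrate and 57, 69 and 61 in control, and Id1 had 967, 1022 and 974 with fenofibrate and 30, 35 and 40 in control. The calls also took in Id2 (7.49-fold), Atoh8 (7.95-fold), Hes1 (3.56-fold), Gata2 (3.03-fold) and Klf10 (1.44-fold), listed with their values known. The rises of Id1, Id3, Smad6 and Smad9 were known when the list was written, so its count of calls and its median are a description. Msx1, Msx2 and Dlx5, targets known from limb and skull, were at 0 in all 6 libraries. Over all 6 lists of other pathway genes, 42 of 93 genes were tested, with 15 higher, 7 lower and 20 not called. The number lower was 4 without fenofibrate replicate 1 and 4 without fenofibrate replicate 2.

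**Figure D5:**
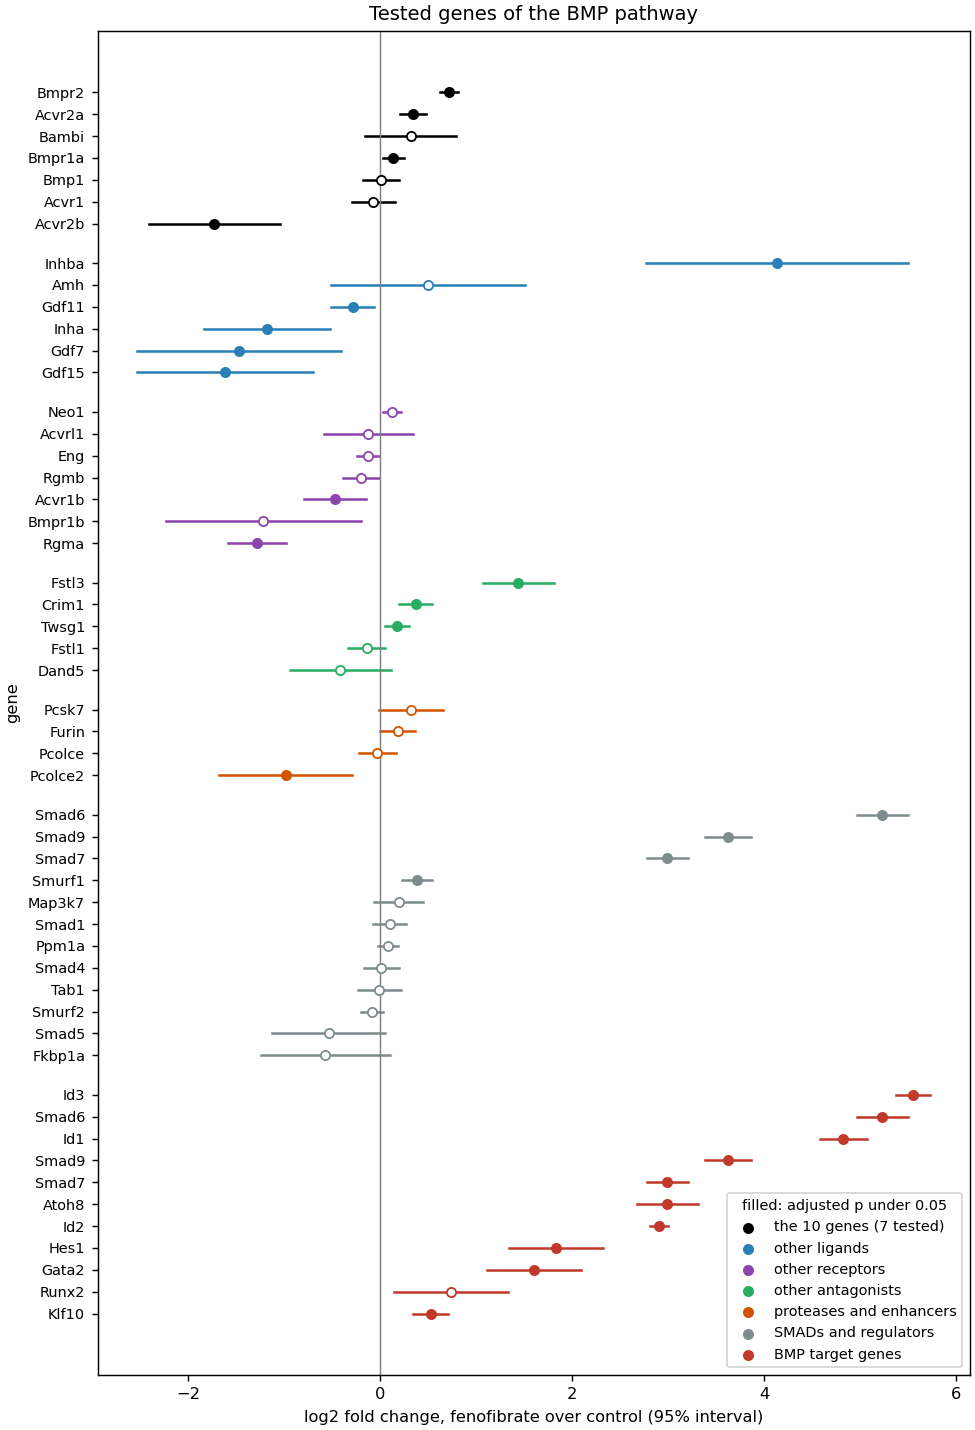
Log2 fold changes, fenofibrate over control, with 95% intervals from the edgeR fit, for the 7 tested genes of the 10 other than Nog (black, top) and for tested genes of 6 lists of other pathway genes. Filled points passed an adjusted p of 0.05. Bmpr2 at 0.72 and Acvr2b at -1.73 are the outermost of the 7, while the target genes at the bottom reach 5.55 for Id3.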

How the data were processed

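Each of the 6 libraries has raw counts and FPKM per gene in the table the authors deposited. HISAT2 2.0.4, StringTie 1.3.0 and GRCm39 are named in the submitters' processing notes without roles. Counting tool, strand setting and filters are not given in the sources used here. Per the file headers the counts are unnormalized. The deposited FPKM are counts per library total and per one length for each gene. Gene positions follow GRCm38, not the build named in the notes: GENCODE M21 holds 99.9% of the gene IDs, with identical coordinates for 98.7% of them.

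Groups come from the sample titles. Counts were compared with edgeR 4.0.16 in R 4.3.3 (filterByExpr, TMM scaling, quasi-likelihood test, no covariate), with Benjamini-Hochberg adjustment over the 13629 genes tested and a threshold of 0.05. Standard errors were derived from each gene's F statistic. Bounds against 0 use 3 counts over the group. The fit was tested on simulated data.

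Alternatives were DESeq2 1.42.0, upper-quartile factors, no filter, a replicate block, limma 3.58.1 on log2(FPKM + 0.5), 0.1 or 1 as pseudocount, limma with no filter (otherwise a mean of 0.5 FPKM in either group), and leaving out each library. For levels, the merged exon length replaced the deposited one.

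Members, lists and tests were chosen with earlier results of these data known. Named were all 10 genes, the 5 nearest to Nog, genes within 100 kb of Nog and, from each list, up to 4 calls with the largest changes in the main direction and 2 in the other.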

Additional observations from a re-analysis of the deposited data

How the results depend on the processing

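Across 14 alternative analyses the count of the 9 genes called lower was 1 and the count called higher was 2 in place of 3, because the call of Bmpr1a was lost. The calls of Bmpr2, Acvr2a and Acvr2b held in 14 of 14, while Bambi, Bmp1 and Acvr1 were called in none. The log2 fold change of Bmp1, near 0, changed sign to -0.0145 with upper-quartile factors, to -0.0327 with limma on log2(FPKM + 0.5) with or without a filter, to -0.0427 with a pseudocount of 0.1 and to -0.0253 with 1. Leaving out 1 library gave Bmp1 values from -0.0091 to 0.0351, below 0 without fenofibrate replicate 2, control replicate 2 or control replicate 3, and Acvr1 values from -0.145 to 0.0157, above 0 without fenofibrate replicate 3 only. Over all genes, leaving out 1 library gave 2112 to 2412 genes higher and 2136 to 2370 lower. The number of other pathway genes called lower was 2 with DESeq2, 3 with no filter, 4 with the replicate block and 4 to 6 without 1 library, against 7. The cause was not tested. Smad5 was called without fenofibrate replicate 2 only (log2 fold change -0.85, adjusted p = 0.0169, with 0.0169 to 0.243 over its alternatives). At least 3 counts in each fenofibrate library, in place of 1, left 24 of the 118 genes found with fenofibrate only.

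Per merged exon length the mean levels were 15.6 for Bmpr2 with fenofibrate, 13.4 and 12.7 for Bmpr1a with fenofibrate and in control, 8.78 and 9.57 for Acvr1, 7.86 and 6.44 for Acvr2a, 1.66 and 1.72 for Bmp1, and 0.396 and 1.37 for Acvr2b, since shorter lengths give higher values. Samples that share a replicate number did not deviate together (correlations from -0.0227 to 0.0203), and not every sample correlated best with its own number. With the replicate number as a block 2293 genes were higher and 2247 lower, against 2664 and 2662, and of the 9 genes 2 were higher and 1 lower.

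Depth limits what 0 means: Bmp2, Bmp4 and, in control, Nog were not detectable above 0.204 to 0.222 CPM in a library.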
